A study of Mus musculus with 21 samples.

Results

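The innate receptor genes described here are 8 C-type lectin receptors and *Trem1*, followed in macrophages sorted from mouse kidneys. The members are *Clec4d*, *Clec4e*, *Clec4n*, *Clec7a*, *Clec10a*, *Clec12a*, *Clec4f*, *Mgl2* and *Trem1*, which are 9 of the 34236 gene symbols in the count table. They were chosen by name, with their levels in these same 21 libraries already known, so their own levels and differences are given as a description with no test. The mice were C57BL/6J males aged 24 weeks. In RAS mice a cuff had been placed on the right renal artery to narrow it (renal artery stenosis), and in Sham mice the artery was isolated without a cuff. Transcripts were measured 4 weeks after the operation. F4/80+CD64+ macrophages were sorted by flow cytometry within 5 hours, after red cells, granulocytes and B, T and NK cells had been gated out by lineage markers. CD11chiMf are CD11b-high and CD11c-high, and 3 libraries came from Sham and 4 from RAS kidneys. CD11cloMf are CD11b-high with low or no CD11c, again with 3 Sham and 4 RAS libraries. KRM, the kidney resident macrophages, are intermediate for both proteins and gave 4 Sham and 3 RAS libraries. RAS stands here for the stenotic kidney alone. The labels give no animal for a library, so the errors measure the spread between libraries, part of which may be technical.

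C-type lectin receptors bind carbohydrates, glycolipids or proteins of microbes and of dying cells through a folded extracellular domain. *Clec4e* (Mincle), *Clec4d* (MCL) and *Clec4n* (Dectin-2) pass the signal through the adaptor Fcer1g, *Clec7a* (Dectin-1) carries a tyrosine motif of its own, and both routes lead through the kinase Syk and the scaffold Card9 to NF-kB and cytokine genes. *Clec12a* is an inhibitory receptor that recruits phosphatases, *Clec10a* and *Mgl2* are galactose-type lectins of alternatively activated macrophages and dendritic cells, *Clec4f* is a lectin of rat and mouse Kupffer cells, and *Trem1* is an immunoglobulin-type receptor that signals through Tyrobp and amplifies inflammation.

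On GRCm38, *Clec4n*, *Clec4d* and *Clec4e* lie side by side on chromosome 6 within 60028 bases, and *Clec12a* and *Clec7a* lie within 130089 bases of each other on the same chromosome. *Mgl2* ends 18646 bases before *Clec10a* begins on chromosome 11, and *Trem1* is on chromosome 17. Promoter windows from RefSeq (GRCm38.p6), each reaching from 250 bases before to 50 bases after a transcription start, were given for 7 of the 9 genes. Those of *Clec4e*, *Trem1* and *Clec4d* are printed because these genes were at their highest in CD11cloMf, and that of *Mgl2* because it was at its lowest there. The windows are chr6:123289822-123290121 (minus strand) for *Clec4e*, chr17:48232489-48232788 (plus strand) for *Trem1*, chr6:123261857-123262156 (plus strand) for *Clec4d* and chr11:70130107-70130406 (plus strand) for *Mgl2*. Capitals mark matches to a C/EBP-type motif, TTNNGNAA, read on both strands.
Clec4e: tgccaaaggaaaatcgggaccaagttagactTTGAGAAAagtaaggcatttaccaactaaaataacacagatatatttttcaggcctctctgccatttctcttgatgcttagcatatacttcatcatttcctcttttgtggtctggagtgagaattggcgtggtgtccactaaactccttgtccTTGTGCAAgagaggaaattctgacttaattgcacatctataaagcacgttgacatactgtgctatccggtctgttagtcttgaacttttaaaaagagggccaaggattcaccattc
Trem1: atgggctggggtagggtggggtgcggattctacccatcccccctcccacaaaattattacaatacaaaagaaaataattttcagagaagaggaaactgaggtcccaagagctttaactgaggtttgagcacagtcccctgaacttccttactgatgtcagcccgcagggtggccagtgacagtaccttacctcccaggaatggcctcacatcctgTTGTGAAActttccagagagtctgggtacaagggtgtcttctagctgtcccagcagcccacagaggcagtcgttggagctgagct
Clec4d: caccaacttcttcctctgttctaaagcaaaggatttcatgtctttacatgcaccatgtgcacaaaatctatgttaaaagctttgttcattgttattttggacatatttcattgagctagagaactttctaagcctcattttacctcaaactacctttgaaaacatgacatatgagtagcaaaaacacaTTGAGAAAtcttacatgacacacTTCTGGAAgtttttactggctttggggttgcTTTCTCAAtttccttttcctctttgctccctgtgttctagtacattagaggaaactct
Mgl2: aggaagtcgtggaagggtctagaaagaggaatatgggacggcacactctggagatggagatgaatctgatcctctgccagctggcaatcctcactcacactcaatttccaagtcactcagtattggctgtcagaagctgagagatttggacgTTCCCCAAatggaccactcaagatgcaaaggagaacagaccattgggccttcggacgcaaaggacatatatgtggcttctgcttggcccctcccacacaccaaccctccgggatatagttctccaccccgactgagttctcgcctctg
The *Clec4e* window held 2 matches, the nearer of which, TTGTGCAA, began 66 bases before the start. *Trem1* held 1 match, 35 bases before the start, *Clec4d* held 3 and *Mgl2* held 1. This motif occurs in 40.7% of 32851 promoter windows of that length, so a match is common. None of the 4 windows held the PU.1 motif GAGGAAGT (3.2% of all windows) or the AP-1 motif TGANTCA (7.81%), also read on both strands. A match is a string of letters and not a shown binding site.

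Library totals ranged from 6891177 to 18592427 counts. Levels are in CPM (counts scaled to library size), scaled by edgeR's TMM factors over all 21 libraries, and a gene with 0 counts could still be present at up to 3 counts, which is 0.15 to 0.476 CPM depending on the library and covers counting error only. Cell type markers set some libraries apart. The 8 tubular epithelium markers summed to 7863 CPM in CD11chiMf Sham 3, 2173 CPM in CD11cloMf Sham 3 and 1180 CPM in KRM Sham 3, against 48.3 to 143 CPM in the other Sham libraries, and to 645, 3863 and 2947 CPM in KRM RAS. The 12 neutrophil markers summed to 1221 to 4984 CPM in CD11cloMf, 14.3 to 403 CPM in CD11chiMf and 70.8 to 138 CPM in KRM, although the sort gated out granulocytes. *Ly6g*, the defining neutrophil marker, was at 0 in every CD11chiMf and KRM library and at 0 to 0.452 CPM in CD11cloMf, where *Mpo* and *Elane* reached at most 0.517 and 1.96 CPM but *Retnlg*, *Csf3r*, *Cxcr2* and *Ngp* reached 1266, 1198, 197 and 54.5 CPM. The 8 classical monocyte markers summed to 3324 to 17295 CPM in CD11cloMf and to 576 to 3172 CPM in the other populations. All 10 macrophage markers had counts in every library, but their sum differed, at 18169 to 25882 CPM in KRM Sham, 9210 to 15581 CPM in KRM RAS, 4706 to 11648 CPM in CD11chiMf Sham and 2952 to 9009 CPM in CD11chiMf RAS. In CD11cloMf it was 5034 to 7631 CPM except in RAS 3, which stood apart at 16858 CPM. The part of these cells in the receptor levels was not tested, and fewer cells of a type cannot be told apart from less RNA per cell in such bulk samples. KRM RAS 1 stood apart in another way. Across 12333 genes its counts correlated with its own column of the authors' log2 table at r = 0.09, where the other 20 libraries had 0.915 to 0.966 (log2 values centred per gene), and which of both tables holds the right values for it is not known.

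*Clec4e* and *Trem1* had the same order of populations. *Clec4e*, a receptor for mycobacterial glycolipid and for Sap130 from dead cells, was measured in CD11cloMf at 476, 345 and 352 CPM in Sham and at 270, 925, 603 and 1425 CPM in RAS. In CD11chiMf it was at 96.7, 91.4 and 30.6 CPM in Sham and at 65.7, 93.1, 64.2 and 69.2 CPM in RAS. KRM held 3.13, 3.17, 3.59 and 5.23 CPM in Sham and 5.60, 17.0 and 16.2 CPM in RAS. No library of one population overlapped another population, in Sham or in RAS, and the highest group mean was 213 times the lowest. *Trem1* in CD11cloMf was at 287, 157 and 134 CPM in Sham and at 129, 629, 389 and 908 CPM in RAS. CD11chiMf gave 72.4, 61.5 and 8.41 CPM in Sham and 43.2, 38.5, 32.6 and 36.1 CPM in RAS. KRM ranged from 1.69 to 5.65 CPM in Sham and from 3.48 to 4.32 CPM in RAS. Here too the 3 populations did not overlap within either condition, and the library with the low Sham value, CD11chiMf Sham 3, is the one with the most tubular RNA.

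*Trem1* and *Clec4e* were also each other's nearest gene. Over the 21 libraries the root mean square difference between their log2 CPM, each centred on its own mean, was 0.55, the smallest that either had with any of 8893 genes with an average log2 CPM of at least 3. The next nearest to *Clec4e* was *Hpse* at 0.88, and the next nearest to *Trem1* was *Lilra6* at 0.95. The ratio of *Clec4e* to *Trem1* counts kept between 1.34 and 3.64 in the 14 CD11chiMf and CD11cloMf libraries, while both genes varied widely. In KRM the ratio ranged from 0.926 to 1.95 in Sham and from 1.30 to 4.66 in RAS, where *Trem1* rested on few counts.

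*Clec4d*, the partner of Mincle on the cell surface, followed the same order at lower levels. CD11cloMf gave 38.8, 14.1 and 35.3 CPM in Sham and 13.7, 94.1, 79.7 and 136 CPM in RAS. CD11chiMf gave 4.90, 6.05 and 6.15 CPM in Sham and 8.16, 49.6, 10.4 and 10.1 CPM in RAS. In KRM it was near the limit of counting in Sham, with 3 to 9 counts per library (0.317 to 0.732 CPM), and stood at 1.77, 5.12 and 5.13 CPM in RAS. The 3 Sham populations did not overlap, whereas in RAS the single high CD11chiMf library reached into the range of CD11cloMf. The nearest genes to *Clec4d* were 1190002H23Rik (0.74) and *Tnfaip2* (0.89).

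**Figure D1:**
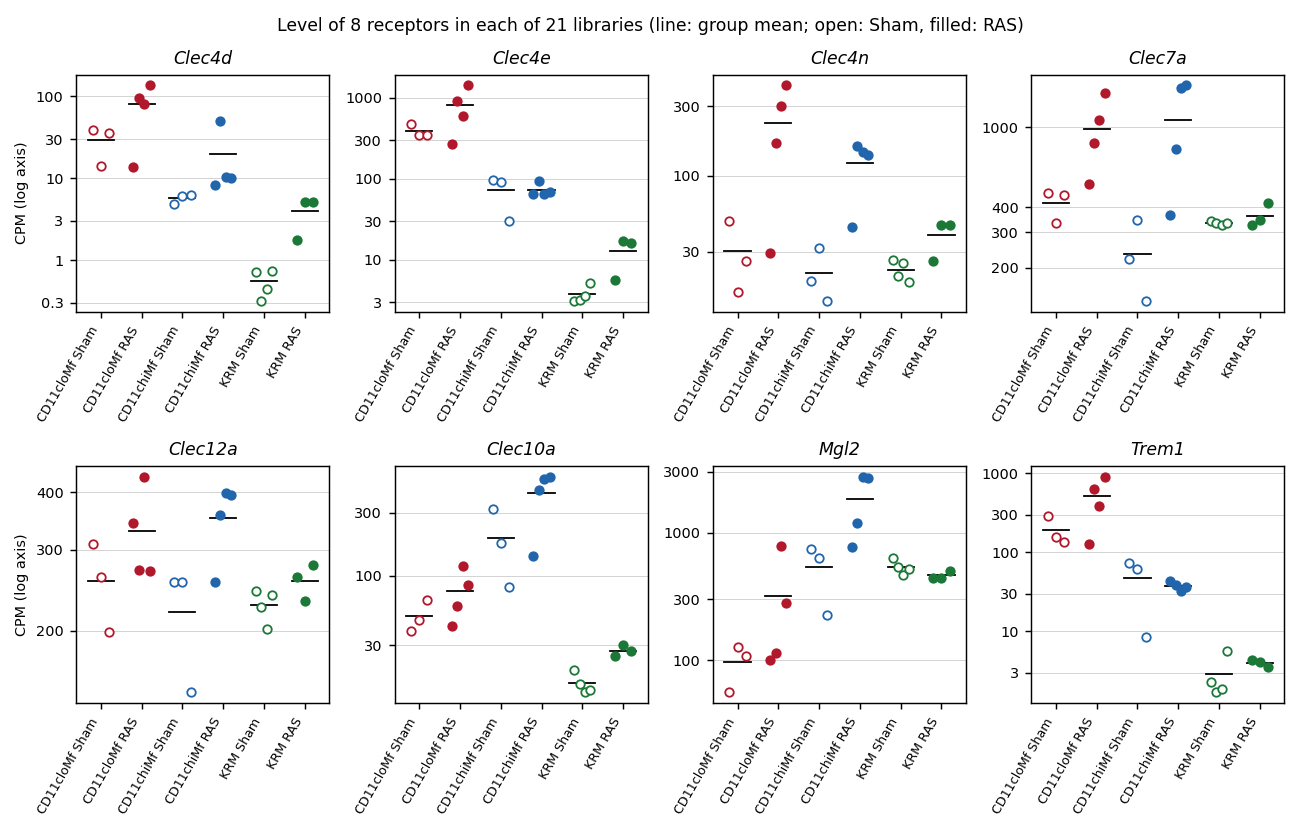
Level of 8 receptor genes in each of the 21 libraries, in CPM on a log axis that differs between panels. Points are libraries (open for Sham, filled for RAS), lines are group means, and colours are populations. *Clec4e* and *Trem1* fall from CD11cloMf to CD11chiMf to KRM with no overlap between populations within a condition, while *Clec12a* lies between 147 and 432 CPM throughout.

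*Clec4n* did not follow its neighbours *Clec4d* and *Clec4e* among Sham libraries. Dectin-2, its product, binds fungal mannans. It was at 48.6, 16.0 and 26.0 CPM in CD11cloMf, at 19.0, 31.8 and 13.8 CPM in CD11chiMf and at 26.2, 20.5, 25.1 and 18.5 CPM in KRM, and all 3 populations overlapped. In RAS libraries it was at 29.4, 168, 300 and 416 CPM in CD11cloMf, 44.5, 160, 145 and 138 CPM in CD11chiMf and 26.1, 45.8 and 45.6 CPM in KRM. In each population the library with the replicate number 1 was the lowest of the RAS libraries. As a result the ratio of *Clec4e* to *Clec4n* counts ran from 0.119 to 0.282 in KRM Sham up to 9.79 to 21.5 in CD11cloMf Sham. *Il1b*, a cytokine gene on the list of targets, was the gene most like *Clec4n* over the 21 libraries (root mean square difference 0.55), followed by *Rabgef1* (0.66).

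*Clec7a*, the receptor for fungal beta-glucan, was abundant in every population. GENCODE vM21 lists it as a polymorphic pseudogene on this genome, although the transcript used here has a coding sequence of 732 bases. Its levels in KRM were 342, 335, 327 and 333 CPM in Sham and 326, 344 and 419 CPM in RAS. CD11chiMf gave 221, 346 and 137 CPM in Sham and 365, 782, 1556 and 1613 CPM in RAS. CD11cloMf gave 469, 334 and 459 CPM in Sham and 520, 836, 1090 and 1469 CPM in RAS. KRM libraries thus differed least among themselves. The most similar genes were *Nfkbie*, an inhibitor of NF-kB (0.35), and *Btg1* (0.39).

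*Clec12a* varied least of the fitted genes. Its 21 values lay between 147 and 432 CPM, its highest group mean was 1.6 times its lowest, and every pair of neighbouring groups in the order of means overlapped. On a scale per kilobase of transcript, which allows genes to be compared with each other, its KRM Sham mean of 91.0 CPM per kb came after *Mgl2* at 329 and *Clec7a* at 147. *Clec10a* at 6.60, *Clec4e* at 1.5, *Trem1* at 0.958 and *Clec4d* at 0.420 CPM per kb were the lowest of the fitted genes in KRM Sham, below *Clec4n* at 18.4. In CD11cloMf RAS the order per kilobase was different, with *Clec7a* at 430, *Clec4e* at 320, *Mgl2* at 195, *Clec4n* at 186, *Trem1* at 172 and *Clec12a* at 131 CPM per kb. The order from *Mgl2* on rests on single libraries, since *Mgl2* averaged 164 CPM without RAS 3 and *Trem1* 382 CPM without RAS 4, which puts either below *Clec12a* per kilobase. Lengths are those of 1 transcript per gene, and the spread of these means is that of the CPM values above.

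*Mgl2* and *Clec10a*, neighbours whose coding sequences were identical at 90.4% of 910 aligned bases, had unlike patterns. *Mgl2* in KRM was at 628, 537, 464 and 520 CPM in Sham and at 444, 438 and 501 CPM in RAS. CD11chiMf gave 748, 630 and 224 CPM in Sham and 770, 1186, 2754 and 2678 CPM in RAS. CD11cloMf gave 55.9, 126 and 107 CPM in Sham and 99.9, 114, 783 and 279 CPM in RAS. In Sham kidneys KRM and CD11chiMf thus overlapped in *Mgl2*, and all CD11cloMf libraries lay below both. *Clec10a* in KRM was at 13.2 to 19.5 CPM in Sham and 24.7 to 29.9 CPM in RAS. CD11chiMf gave 318, 178 and 82.0 CPM in Sham and 142, 443, 538 and 563 CPM in RAS, and CD11cloMf gave 38.4, 46.4 and 65.2 CPM in Sham and 42.0, 59.6, 118 and 85.3 CPM in RAS. KRM thus held the least *Clec10a* and CD11chiMf the most, with no overlap between populations in either condition.

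The number of *Mgl2* counts per *Clec10a* count was 32.2, 35.2, 35.3 and 37.9 in KRM Sham and 18.0, 14.6 and 18.4 in KRM RAS. It was 2.36 to 5.41 in CD11chiMf and 1.46 to 6.65 in CD11cloMf. KRM libraries therefore stood above all the others, and within KRM the RAS libraries lay below the Sham libraries. Reads that fit both genes were divided between them by the authors' counting. The counts of each gene were whole numbers (within 0.01) in only 1 of 21 libraries, whereas their sum was whole in 20, so the level of each gene alone is uncertain. *H2-Ab1*, a class II antigen presentation gene (0.52), and *Clec4b1* (0.54) were most like *Mgl2*, and *Amica1* (0.60) and *Chn2* (0.62) were most like *Clec10a*. For *Clec12a* the nearest were a gene whose symbol the count table holds as a date (0.19) and *Hspa14* (0.20).

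**Figure D2:**
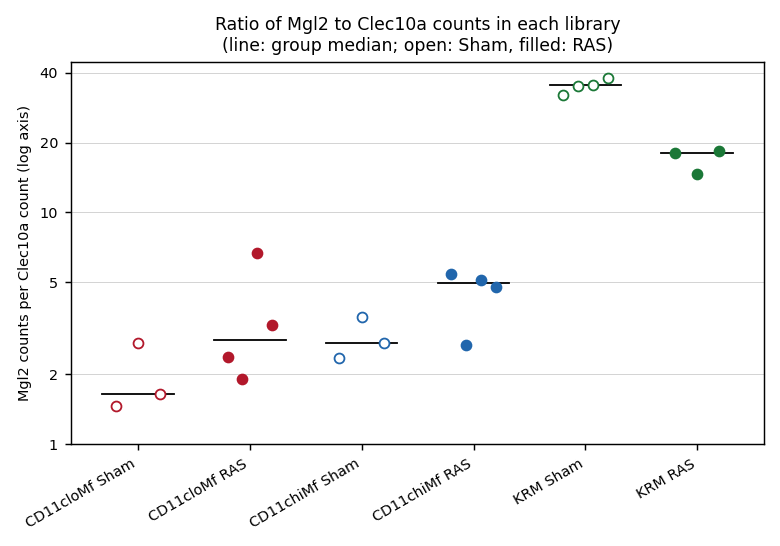
Counts of *Mgl2* per count of *Clec10a* in each library, on a log axis, with lines at group medians (open for Sham, filled for RAS). All KRM libraries lie between 14.6 and 37.9 and all other libraries between 1.46 and 6.65.

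*Clec4f* had 0 counts in 20 of the 21 libraries. In KRM RAS 1, the library whose deposited tables did not match, it had 118 counts (11.6 CPM), whereas KRM RAS 2 and 3 had 0 counts. The 4 other Kupffer cell markers summed to 12.4 CPM in KRM RAS 1, 2.69 and 1.28 CPM in KRM RAS 2 and 3, and 0.212 to 1.36 CPM in KRM Sham. Of these 4, *Cd5l* and *Timd4* were higher in KRM RAS than in KRM Sham without overlap, and 2 overlapped. In CD11cloMf, where *Clec4f* was at 0, those 4 markers summed to 36.6 to 490 CPM. The gene did not pass the filter on low counts in any comparison, so 8 of the 9 genes were fitted.

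The comparison of populations in Sham kidneys asked how resident and infiltrating macrophages differ without stenosis. Fold changes are fitted by edgeR on the libraries of both groups and given on the log2 scale as the first group minus the second, with their standard error. Against CD11cloMf, KRM were lower in *Clec4e* by -6.71 (SE 0.233), *Trem1* by -6.13 (SE 0.479), *Clec4d* by -5.74 (SE 0.451) and *Clec10a* by -1.72 (SE 0.215), and were higher in *Mgl2* by 2.46 (SE 0.275). These 5 of the 8 fitted genes did not overlap, where 48.9% of all 12365 genes tested did not overlap, and nothing is read from the count since the genes were chosen on these libraries. *Clec4n* (-0.44, SE 0.35), *Clec7a* (-0.35, SE 0.134) and *Clec12a* (-0.20, SE 0.166) overlapped. Against CD11chiMf, KRM were lower in *Clec4e* (-4.30, SE 0.415), *Trem1* (-4.08, SE 0.754), *Clec10a* (-3.68, SE 0.42) and *Clec4d* (-3.41, SE 0.393), and these 4 of 8 were lower without overlap (10.9% of 12380 genes). *Mgl2* (-0.03, SE 0.366), *Clec4n* (0.03), *Clec7a* (0.47) and *Clec12a* (0.01) overlapped. CD11chiMf were higher than CD11cloMf in *Mgl2* (2.51, SE 0.512) and *Clec10a* (1.99, SE 0.48) and lower in *Clec4e* (-2.38, SE 0.426), *Clec4d* (-2.28, SE 0.443) and *Trem1* (-1.99, SE 0.729), 5 of 8 that did not overlap (26.8% of 12105 genes), whereas *Clec4n* (-0.42), *Clec7a* (-0.79) and *Clec12a* (-0.16) did. The median of all genes in that comparison was 0.13, and the values are to be read relative to it. Without the Sham libraries of replicate 3 the *Trem1* differences were -6.13, -4.40 and -1.73, in the order of these comparisons, and those of *Clec10a* were -1.43, -3.97 and 2.55.

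The same 3 comparisons were made among RAS kidneys. KRM were lower than CD11cloMf in *Trem1* (-6.99, SE 0.789), *Clec4e* (-5.92, SE 0.787), *Clec4d* (-4.29, SE 0.837), *Clec10a* (-1.43, SE 0.342) and *Clec7a* (-1.39, SE 0.371), and these 5 of 8 were lower without overlap (17.6% of 13179 genes). KRM were lower than CD11chiMf in *Clec10a* (-3.89, SE 0.508), *Trem1* (-3.19, SE 0.24), *Clec4e* (-2.43, SE 0.419), *Clec4d* (-2.24, SE 0.798) and *Mgl2* (-1.93, SE 0.485), again 5 of 8 lower without overlap (15.8% of 13226 genes). Without CD11chiMf RAS 2, the *Clec4d* difference was -1.15. *Clec4n* differed by -2.50 (SE 0.799) against CD11cloMf and by -1.58 (SE 0.462) against CD11chiMf, with groups that overlapped through RAS replicate 1. *Clec7a* against CD11chiMf (-1.50, SE 0.506), *Mgl2* against CD11cloMf (0.60, SE 0.674) and *Clec12a* against either (-0.39 and -0.30) overlapped too. Between CD11chiMf and CD11cloMf, *Trem1* (-3.77, SE 0.526) and *Clec4e* (-3.47, SE 0.475) were lower and *Clec10a* (2.46, SE 0.465) was higher, 3 of 8 without overlap (16.6% of 12305 genes). *Mgl2* differed there by 2.52 (SE 0.711), with CD11cloMf RAS 3, at 783 CPM, inside the range of CD11chiMf. Without that library *Mgl2* differed by 3.48 here and by 1.55 in KRM against CD11cloMf. *Clec4d* (-2.04, SE 0.753, and -3.09 without CD11chiMf RAS 2), *Clec4n* (-0.91), *Clec7a* (0.13) and *Clec12a* (0.09) overlapped.

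**Figure D3:**
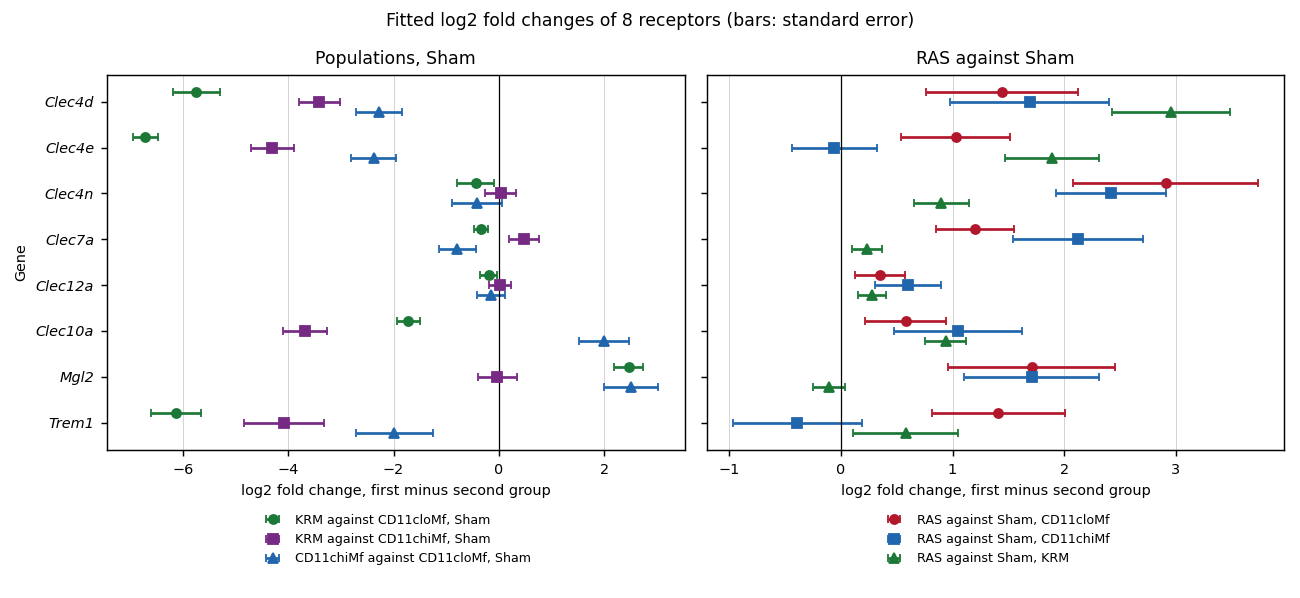
Fitted log2 fold changes of 8 receptor genes with standard errors as bars, for populations of Sham kidneys (left) and for RAS against Sham within each population (right). *Clec4d*, *Clec4e* and *Trem1* lie far below 0 in KRM against CD11cloMf, and *Clec4n* shows 2.91 in CD11cloMf and 2.42 in CD11chiMf for RAS against Sham.

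RAS was then compared with Sham within each population. Among the 8 B and T cell markers, those higher in RAS without overlap numbered 4 in CD11chiMf, 4 in CD11cloMf and 5 in KRM, with *Cd3d*, *Nkg7* and *Trac* in each, while *Cd79b* was lower in KRM. The list summed to 32.1 to 59.8 CPM in Sham and 44.1 to 166 CPM in RAS for CD11chiMf, 14.6 to 17.0 and 21.3 to 59.6 CPM for CD11cloMf, and 85.2 to 130 and 46.5 to 252 CPM for KRM, and its part was not tested. In CD11chiMf the values were above Sham in *Clec4n* (2.42, SE 0.494), *Clec7a* (2.12, SE 0.583), *Mgl2* (1.71, SE 0.603), *Clec4d* (1.69, SE 0.71) and *Clec12a* (0.60, SE 0.295). These 5 of 8 were higher without overlap, against 4.36% of 12739 genes, but the margins were narrow, with the lowest RAS and highest Sham libraries at 365 and 346 CPM for *Clec7a* and at 255 CPM each for *Clec12a*. *Clec10a* (1.05, SE 0.572), *Clec4e* (-0.06, SE 0.381) and *Trem1* (-0.39, SE 0.578) overlapped, and the *Clec10a* value ranged from 0.71 without Sham 3 to 1.61 without Sham 1. The *Clec4d* value rested on RAS 2, without which it was 0.61, and without Sham replicate 3 the *Mgl2* value was 1.35. The 8 dendritic cell markers summed to 476, 470 and 209 CPM in Sham and 491, 741, 1253 and 1409 CPM in RAS. Of these 8, only *Kit* was higher in RAS without overlap, and 7 overlapped. Macrophage markers were at 9009, 5456, 3461 and 2952 CPM in RAS and at 4706 to 11648 CPM in Sham, and all 10 overlapped. RAS 3 and 4, the lowest in this sum, were the libraries highest in *Clec7a* and *Mgl2*. The part of either list was not tested.

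In CD11cloMf the largest value was that of *Clec4n* (2.91, SE 0.827), with overlap because RAS 1 (29.4 CPM) lay within the Sham range. *Mgl2* (1.71, SE 0.749), *Clec4d* (1.44, SE 0.682), *Trem1* (1.41, SE 0.595), *Clec4e* (1.03, SE 0.489), *Clec10a* (0.58, SE 0.361) and *Clec12a* (0.35, SE 0.226) overlapped as well. *Clec7a* (1.20, SE 0.346) alone did not, 1 of 8 genes against 4.46% of 12301 genes that were higher without overlap. RAS 1 was below the other 3 RAS libraries in 7 of these 8 genes, with *Clec12a* as the exception. Without RAS 1 the *Clec4e* value was 1.32, and without RAS 4, the highest library in *Clec4e* and *Trem1*, it was 0.61. Without RAS 3, the library with macrophage markers at 16858 CPM against 5920 to 7631 CPM in the other RAS libraries, *Mgl2* was at 0.76. Neutrophil markers summed to 2862, 2278 and 1221 CPM in Sham and to 2449, 3200, 2805 and 4984 CPM in RAS, and 1 of the 12, *Mmp9*, was higher in RAS without overlap (227 to 356 and 357 to 1279 CPM). The other 11 overlapped, among them *S100a9* at 40.5 to 241 CPM in Sham and 163 to 1052 CPM in RAS and *Mmp8* at 87.5 to 607 and 24.1 to 194 CPM. Classical monocyte markers had medians of 13727 CPM in Sham (6755 to 17295 CPM) and 7856 CPM in RAS (3324 to 9567 CPM), and all 8 overlapped. The part of these markers in the receptor values was not tested.

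In KRM the largest difference was that of *Clec4d*, the fitted gene with the lowest Sham level. *Clec4d* (2.96, SE 0.528), *Clec4e* (1.89, SE 0.419) and *Clec10a* (0.94, SE 0.184) were higher in RAS without overlap, 3 of 8 genes against 10.5% of 12852 genes. *Clec4n* (0.90, SE 0.245) missed this by its RAS 1 library, at 26.1 against a highest Sham value of 26.2 CPM. *Trem1* (0.58, SE 0.469), *Clec12a* (0.28, SE 0.123), *Clec7a* (0.23, SE 0.134) and *Mgl2* (-0.11, SE 0.144) overlapped. RAS 1 was the lowest of the 3 RAS libraries in *Clec4d*, *Clec4e*, *Clec4n* and *Clec10a*, and also the lowest in tubular markers, at 645 CPM against 3863 and 2947 CPM. Macrophage markers summed to 18169 to 25882 CPM in Sham and 9210 to 15581 CPM in RAS, and 8 of the 10 were lower in RAS without overlap. Neutrophil markers summed to 94.1 to 120 CPM in Sham and 70.8 to 138 CPM in RAS, most of which was *Csf3r*, and of the 12 *Mmp9* was higher (0.837 to 1.45 CPM in Sham and 5.82 to 12.2 CPM in RAS) and *Mmp8* lower (1.68 to 2.86 and 0 to 0.589 CPM) without overlap, and the other 10 overlapped. Classical monocyte markers summed to 576 to 875 CPM in Sham and 609 to 1019 CPM in RAS. Of these 8, *F13a1*, *Plac8* and *Fn1* were higher in RAS and *Chi3l3* was lower without overlap, and 4 overlapped. Of the 8 dendritic cell markers, *Zbtb46*, *Ccr7* and *Kit* were higher and *Flt3* was lower without overlap, and 4 overlapped. The part of these markers was not tested. Without RAS 1, whose counts and log2 column did not match, the values were 3.28 for *Clec4d*, 2.21 for *Clec4e* and 1.09 for *Clec4n*.

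The wider pathway was taken from 5 lists of 75 genes that exclude the 9 members, and a gene was called at an adjusted p under 0.05 by edgeR over all genes tested. The lists too were chosen with earlier results of these data known. Their counts beside the share of all genes are therefore a description, and nothing is read from them. In KRM against CD11cloMf of Sham kidneys, 48 of the 63 list genes tested were called, 15 higher and 33 lower, where 41.9% of all genes were called. All 4 called TREM family genes were lower in KRM, and the median log2 fold change of the 5 tested was -3.27 where all genes had -0.04. *Trem3* had 1.04 CPM in KRM against 42.3 CPM in CD11cloMf, a log2 fold change of -5.41 (SE 0.364, edgeR adjusted p = 1.7e-05), and *Treml2* (-4.17) and *Treml6* (-3.27) fell with it. *Trem2*, a receptor that shares the adaptor Tyrobp with *Trem1*, was at 28.9 and 38.8 CPM and was not called (edgeR adjusted p = 0.148). Other C-type lectins were called 9 times in each direction, of 24 tested. *Cd72*, an inhibitory receptor of B cells and macrophages, had 1330 CPM in KRM against 28.0 CPM in CD11cloMf (5.54, SE 0.273), and *Clec9a* (5.18), a receptor for damaged cells, and *Clec1a* (3.14) were higher too. *Cd209f* (-7.13), *Cd209g* (-6.48) and *Olr1* (-5.87), the receptor for oxidised LDL, were lower, and reads of the near-identical Cd209 genes may have been shared among them.

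Adaptors and signalling genes differed by smaller amounts, with 11 of 19 lower and 2 higher and a median of -0.64. *Syk*, the central kinase, averaged 278 CPM in KRM against 439 CPM in CD11cloMf (-0.69, SE 0.16, edgeR adjusted p = 0.00959), and *Tyrobp* was at 995 and 1529 CPM (-0.64, edgeR adjusted p = 0.0397). *Fcer1g* (0.24, edgeR adjusted p = 0.369) and *Card9* (-0.75, edgeR adjusted p = 0.0784) were not called. *Fgr*, a Src-family kinase, had the lowest value (-2.32), followed by *Plcg2* (-1.11) and *Malt1* (-0.98), while *Inpp5d* (0.69), a phosphatase that restrains such signals, and *Vav1* (0.48) were higher. Among the targets, 6 of 11 were lower and 3 higher. *Il6* (-5.61), *Ptgs2* (-5.15) and *Il10* (-4.57) were lower in KRM, and the chemokines *Ccl4* (2.79) and *Ccl3* (1.51) were higher. All 4 host ligands were called. *Pglyrp1*, a ligand of Trem1 from neutrophil granules, had 1.59 CPM in KRM against 135 CPM in CD11cloMf (-6.55, SE 0.539, edgeR adjusted p = 4.65e-05), *Vim* (-4.44) and *Lgals9* (-0.82) were lower, and *Sap130* (0.83), the ligand of Mincle, was higher. The neutrophil markers that accompany *Pglyrp1* in CD11cloMf are given above, and their part was not tested. The replicate numbers were taken to pair the Sham libraries of the 3 populations, although the labels do not name the animals. With the number as a block 45 genes were called. Without single libraries the number stayed between 41 and 52.

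**Figure D4:**
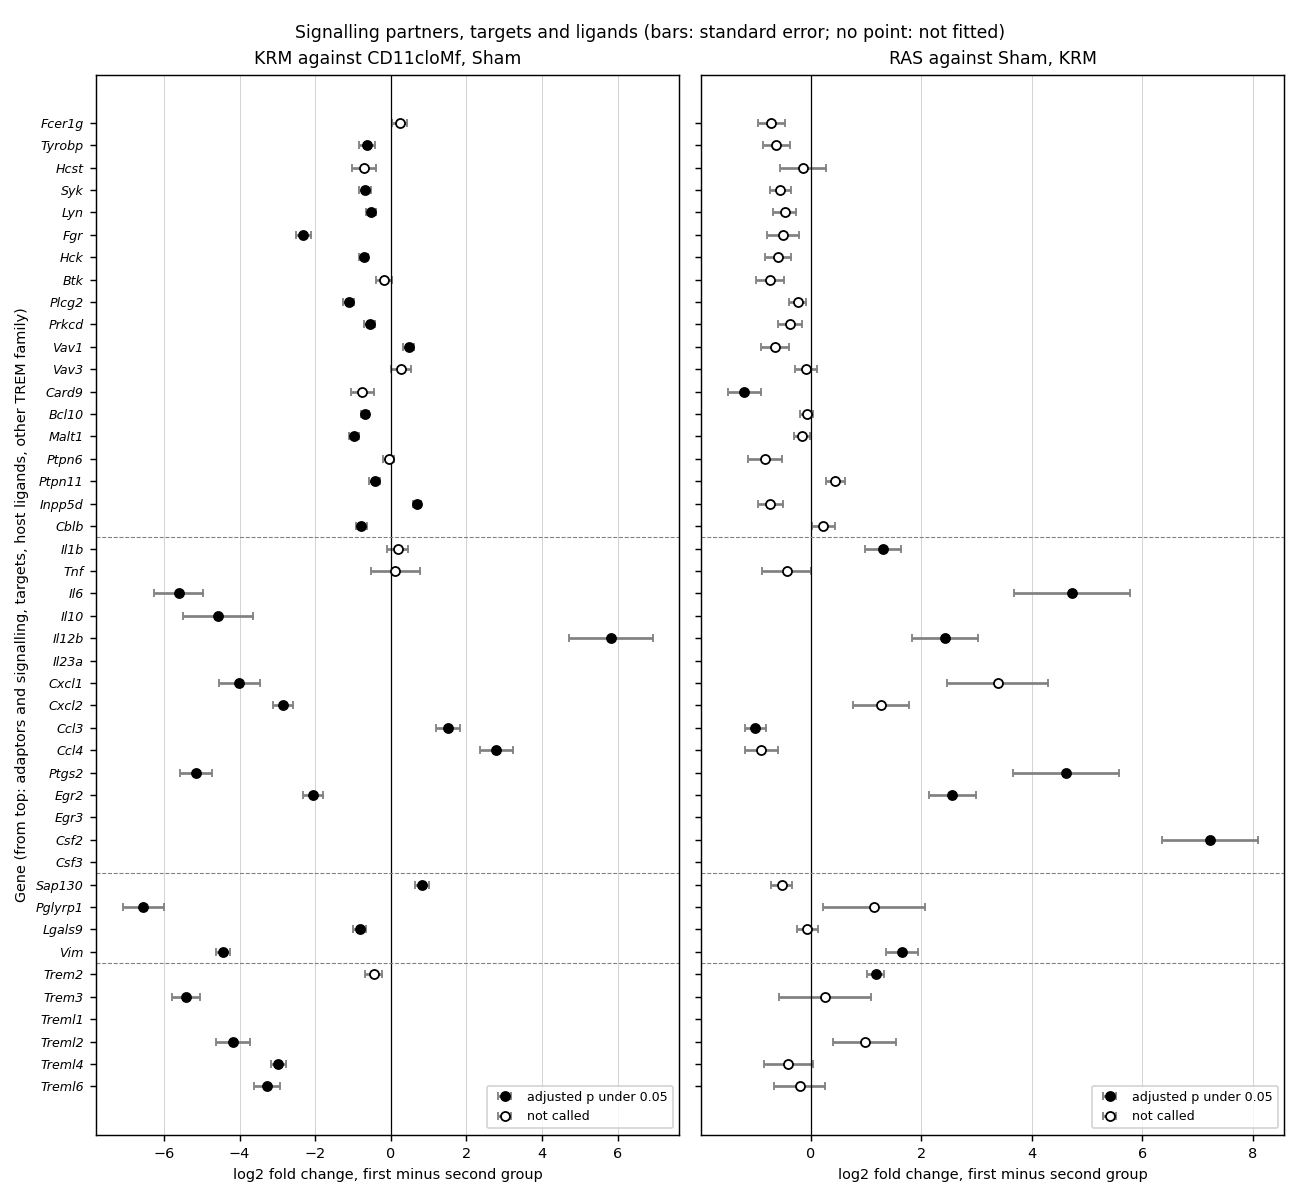
Log2 fold changes with standard errors for adaptors and signalling genes, targets, host ligands and other TREM family genes, in KRM against CD11cloMf of Sham kidneys (left) and in RAS against Sham KRM (right). Filled points passed an adjusted p of 0.05 from edgeR, genes without a point were not fitted, and the *Csf2* value rests on 0 counts in every KRM Sham library.

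Against CD11chiMf of Sham kidneys, KRM had 15 of 64 list genes called, all lower (5.13% of all genes were called). None of the 19 adaptors and signalling genes was among them by edgeR, none had an unadjusted p under 0.05, and DESeq2 called 0, but without CD11chiMf Sham 3 edgeR called 5 of them (*Fgr*, *Cblb*, *Malt1*, *Plcg2* and *Ptpn11*). *Cd209a*, the mouse DC-SIGN and a marker of monocyte-derived dendritic cells, averaged 13.6 CPM in KRM against 786 CPM in CD11chiMf (-5.89, SE 0.68, edgeR adjusted p = 0.00623, and 0.0408 with the replicate block). *Vim* (-2.89), *Pglyrp1* (-4.64), *Ptgs2* (-2.83) and *Cd209d* (-5.40) were lower with the block as well. *Trem3* (-4.17), *Treml4* (-2.91), *Il6* (-4.44), *Cxcl1* (-2.66) and *Cd209f* (-5.28) lost the call, with blocked edgeR adjusted p-values of 0.079 to 0.122. The count was 5 with the block, 30 without CD11chiMf Sham 3, the library with the most tubular RNA, and 26 without the 3 Sham libraries of replicate 3. It was 5 without CD11chiMf Sham 1, KRM Sham 1 or KRM Sham 2, 9 without KRM Sham 3 and 7 without KRM Sham 4. Between CD11chiMf and CD11cloMf of Sham kidneys, *Cd72* (4.39, SE 0.399, edgeR adjusted p = 0.0202) and *Clec4b1* (2.97, SE 0.319, edgeR adjusted p = 0.0219) were the 2 called of 64 tested, both higher (1.52% of all genes). With the block 9 were called, and without CD11chiMf Sham 3 also 9, while 0 were called by edgeR without CD11chiMf Sham 1 or 2 or without any single CD11cloMf library, where 22 of the 64 had an unadjusted p under 0.05 in all libraries and DESeq2 called 16.

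Among RAS kidneys, KRM had 18 of 68 list genes called against CD11cloMf, all lower (9.17% of all genes). They included 8 of 19 adaptors and signalling genes, among them *Syk* (175 against 532 CPM, -1.57, SE 0.259, edgeR adjusted p = 0.0246), *Tyrobp* (-1.38, edgeR adjusted p = 0.0288), *Card9* (-1.58, edgeR adjusted p = 0.0423), *Fgr* (-2.62) and *Malt1* (-1.66). *Trem3* (-5.18), *Treml6* (-3.35), *Treml4* (-3.33), *Olr1* (-5.42), *Clec4a1* (-1.04), *Clec4a3* (-1.01), *Pglyrp1* (-4.90), *Vim* (-2.48) and *Lgals9* (-1.01) were lower too, and 0 of 15 targets were called by edgeR, with 3 at an unadjusted p under 0.05, 3 called by DESeq2 and 0 to 2 under the other settings. These calls rest on few libraries, since the count was 0 without CD11cloMf RAS 2, KRM RAS 2 or KRM RAS 3, 1 without CD11cloMf RAS 4 and 27 without KRM RAS 1. Against CD11chiMf 14 of 69 were called, 13 lower (9.23% of all genes). *Cd209c* (-5.03, SE 0.525, edgeR adjusted p = 0.00634), *Cd209a* (-5.35), *Clec4g* (-5.01), *Malt1* (-1.99), *Fgr* (-1.80), *Syk* (-1.0), *Treml6* (-1.93), *Pglyrp1* (-3.40) and *Vim* (-2.62) were lower, and *Ccl3* (1.35) was higher. That count was 0 without KRM RAS 2, 1 without KRM RAS 3, CD11chiMf RAS 3 or CD11chiMf RAS 4, 3 without CD11chiMf RAS 2 and 22 without CD11chiMf RAS 1.

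CD11chiMf of RAS kidneys differed from CD11cloMf in 14 of 67 list genes, 6 higher and 8 lower (8.27% of all genes). The 10 called C-type lectins went 5 in each direction. *Cd209a* was at 2607 CPM in CD11chiMf and 197 CPM in CD11cloMf (3.71, SE 0.727, edgeR adjusted p = 0.0176), and *Cd209c* (3.91) and *Clec4g* (3.74) were higher, whereas *Cd209f* (-5.63), *Clec4a1* (-1.61) and *Clec4a3* (-1.13) were lower. *Il12b* (4.77), which encodes a subunit of IL-12 and IL-23, was higher, and *Lyn* (-1.01), *Lgals9* (-0.88) and *Treml6* (-1.40) were lower. The count was 2 without CD11chiMf RAS 3 or RAS 4, 6 without CD11chiMf RAS 2, 3 without CD11cloMf RAS 2 and 4 without CD11cloMf RAS 4.

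RAS against Sham gave list genes past the threshold in KRM and in neither of the others. In CD11chiMf 0 of 69 and in CD11cloMf 0 of 65 were called by edgeR, with 21 and 11 at an unadjusted p under 0.05, and DESeq2 called 7 and 1. Over all genes edgeR likewise called 0 in both populations (0% of genes), with 1247 and 1102 at an unadjusted p under 0.05. In KRM 15 of 62 were called, 12 higher and 3 lower (9.7% of all genes), and whether the populations differed in their response was not tested. Among the targets 6 were higher and 1 lower, of 11 tested. *Egr2*, an early response transcription factor, was at 98.8 ± 55.8 CPM (SD, n = 3) in RAS and 18.2 ± 3.53 CPM (SD, n = 4) in Sham (2.56, SE 0.429, edgeR adjusted p = 0.0231). *Il6* (4.73, edgeR adjusted p = 0.0369) and *Il12b* (2.42, edgeR adjusted p = 0.0465) were higher and *Ccl3* (-1.01, edgeR adjusted p = 0.0269) was lower. *Trem2* was at 60.4 ± 5.85 CPM (SD, n = 3) in RAS and 28.9 ± 4.77 CPM (SD, n = 4) in Sham (1.17, SE 0.157, edgeR adjusted p = 0.0154), and *Vim* (1.65) and *Cd209a* (2.27, edgeR adjusted p = 0.0414) were higher. The *Cd209a* groups overlapped, at 60.3 ± 40.9 CPM (SD, n = 3) in RAS and 13.6 ± 6.32 CPM (SD, n = 4) in Sham. *Card9* (-1.21, edgeR adjusted p = 0.0466) and *Clec5a* (-0.75), an activating lectin that pairs with Tyrobp, were lower. *Card9* was the only one called of the 19 adaptors and signalling genes, whose median was -0.51 where all genes had 0.02. *Syk* (-0.56, edgeR adjusted p = 0.0885), *Fcer1g* (-0.72, edgeR adjusted p = 0.0887) and *Tyrobp* (-0.63, edgeR adjusted p = 0.118) did not pass. *Mrc1*, the mannose receptor, was at 381 CPM in RAS and 332 CPM in Sham and was not called (0.30, edgeR adjusted p = 0.268). The number called was 46 without KRM RAS 1, 9 without KRM Sham 3, 1 without KRM Sham 1 and 0 without KRM Sham 2, KRM Sham 4, KRM RAS 2 or KRM RAS 3. Tubular markers were at 645 to 3863 CPM in RAS and at 125 to 1180 CPM in Sham, and macrophage markers were at 9210 to 15581 and 18169 to 25882 CPM. Of the 8 classical monocyte markers, 3 were higher in RAS and 1 was lower without overlap. Of the 8 dendritic cell markers, 3 were higher and 1 was lower as well. The part of these 4 lists in the calls was not tested.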

How the data were processed

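Macrophages were sorted from kidneys of Sham and RAS mice, and libraries were made with SMART-Seq v4 Ultra Low Input and Nextera XT kits. The authors aligned paired-end reads with OSA to mm10, assigned them to Ensembl genes and deposited estimated counts per gene (unscaled), with 9.7% to 14.2% of values per library not whole, and a second table of quantile-normalized values whose scale is log2. For KRM RAS 1 the deposited counts and log2 column did not match, and either may be the wrong one. No column was left unmapped. DESeq2 is named in the submitters' processing notes.

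Estimated counts were rounded and lines of the same symbol summed (37620 lines, 34236 symbols). edgeR 4.0.16 in R 4.3.3 gave TMM factors, filterByExpr (minimum count 10, minimum total 15) and the two-sided quasi-likelihood F test, fitted to both compared groups only, with Benjamini-Hochberg adjustment over all genes tested. Standard errors are the size of the log2 fold change over the root of F. Log2 CPM used a prior count of 2. Totals of 6891177 to 18592427 counts make counting error small for abundant genes. Tested on simulated data with 200 genes changed, edgeR recovered 48% for CD11chiMf against CD11cloMf in Sham to 71% for the same pair in RAS. Of the genes it called there, 1.59% to 6.14% were false. The simulation set the same spread for every gene and comparison, so these shares need not hold for the real libraries.

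Alternatives were DESeq2 1.42.0, limma 3.58.1 with the log2 table, a block for the replicate number, 1 model for all 6 groups, median-of-ratios factors, no filter, the largest line kept per symbol and each library left out. Others, leaving out the Sham libraries of replicate 3 and leaving KRM RAS 1 out of the log2 table, were chosen after seeing the data. Libraries with the same number deviated together between populations of Sham kidneys (r of 0.201 to 0.647 in every pair), so the numbers were taken to pair them, although in CD11chiMf against CD11cloMf libraries 1 and 2 were closer to another number (0.482 and 0.457) than to their own (0.349 and 0.385), and replicate 3 had the highest r in each comparison. In the other comparisons at least 1 pair fell under 0.1.

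The 9 members and the lists were chosen with earlier results of these data known. Genes named beside the members are *Syk*, *Card9*, *Fcer1g*, *Tyrobp*, *Trem2*, *Mrc1* and *Cd209a*, per list and comparison up to 3 genes in each direction with the largest log2 fold change among called genes with separate groups and a mean of at least 5 CPM in one group, and the 2 genes most like each member. All 142 list genes were found, 3 under another symbol (*Treml6* as B430306N03Rik). Positions and lengths are from GENCODE vM21. Of the other marker lists, dendritic cell markers summed to 72.1 to 209 CPM in CD11cloMf and KRM, and B and T cell markers to 14.6 to 252 CPM over all libraries.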

Additional observations from a re-analysis of the deposited data

Results flagged for a closer look

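*Clec4d* stood apart in 1 library of CD11chiMf from RAS kidneys. RAS 2 was at 49.6 CPM, and the other 3 libraries were at 8.16 to 10.4 CPM. *Trem1* stood apart in KRM Sham 4, at 5.65 CPM against 1.69 to 2.29 CPM in the other 3 libraries. These were the only flags among 24 sets of 4 libraries, and chance gives about 1 in 20.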

How the results depend on the processing

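The 72 fitted fold changes of the members had 1152 values under the alternatives, of which 50 moved by more than the spread between replicates. Of the 45 fold changes of at least 1 on the log2 scale, 0 changed sign in 717 values, while smaller ones did so in 45. The number of pathway genes called depended more on the setting. With DESeq2 it was 16 for CD11chiMf against CD11cloMf in Sham and 24 in RAS, 24 for KRM against CD11chiMf and 30 for KRM against CD11cloMf in RAS, and for RAS against Sham 7 in CD11chiMf, 1 in CD11cloMf and 32 in KRM. In 1 fit over all groups it was 12 for CD11chiMf against CD11cloMf in Sham and 9 for RAS against Sham in KRM. The replicate block gave 5 for KRM against CD11chiMf and 9 for CD11chiMf against CD11cloMf in Sham. In RAS kidneys and between RAS and Sham, where the libraries share only a number, the block gave 3 for KRM against CD11chiMf and 0 for RAS against Sham in KRM by edgeR (30 at an unadjusted p under 0.05), and it moved no other count by over 1.5 times. On the log2 table limma gave 7 for KRM against CD11chiMf and 11 for KRM against CD11cloMf in RAS, with or without the filter. It gave 30 with and 34 without the filter for RAS against Sham in KRM, and 9 without the filter for KRM against CD11chiMf in Sham. Leaving KRM RAS 1 out of that table, chosen after seeing the data, gave 22, 28 and 44 in the 3 comparisons with KRM RAS. Leaving out the Sham libraries of replicate 3 gave 26 for KRM against CD11chiMf, 25 for CD11chiMf against CD11cloMf and 9 for RAS against Sham in KRM. Over single libraries left out, the counts ranged from 5 to 30, 41 to 52 and 0 to 9 in the Sham comparisons (KRM against CD11chiMf, KRM against CD11cloMf, CD11chiMf against CD11cloMf), from 0 to 22, 0 to 27 and 2 to 20 in the same order in RAS, and from 0 to 46 for RAS against Sham in KRM, with 0 throughout in CD11chiMf and CD11cloMf. The cause of these shifts was not tested. Depth limits *Clec4d* and *Trem1* in KRM, and *Clec4f*.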
